A study of Drosophila melanogaster with 4 samples.

Results

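Cpr97Eb and Cpr49Ag are genes of insect cuticle proteins, and the signal of both was described here in male and female flies that had developed under hyperbaric normoxia (HN) and in their controls. The 2 genes were found by matching the transcript identifier of each probe on the array, without its version, to the RefSeq transcripts of Drosophila melanogaster, and they are 2 of the 360 genes that could be named in this way or through a synonym. Cpr97Eb was matched through NM_143273 and Cpr49Ag through NM_136932, and each had 1 named probe. Only 1.28% of the probes could be named, so other probes of either gene may have been missed. All flies were wild-type w1118, raised on the same medium at 25°C and analysed as whole bodies at 10 days of age. HN males and HN females were kept at a pressure of 2 atmospheres absolute in normoxia until eclosion and without HN afterwards, while control males and control females had no HN exposure. RNA of 20 flies of each sex and treatment was used, and each of the 4 groups was measured on 1 array, so that the difference between HN and control flies within a sex has no replicate check. A whole-body level cannot tell fewer cells of a kind from less RNA in each cell.

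The cuticle of insects is a layered material of chitin fibers and proteins that is secreted by the epidermis and covers the body, the tracheae and parts of the gut. Proteins of the Cpr family carry the Rebers and Riddiford consensus, a domain that binds chitin, and many of them are made in bursts around the molts and the emergence of the adult. Chitin itself is built by chitin synthase and broken down by chitinases, and the binding of Cpr proteins to the fibers adds to the stiffness and flexibility of the cuticle.

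All 4 arrays were on 1 slide. Scan 1 read the HN male array and both female arrays, and scan 2 read the control male array alone. Scan and treatment therefore cannot be told apart in males, whereas the female pair comes from a single scan. The signal of a spot is its fluorescence intensity after background subtraction. Signals were scaled so that the 50th percentile of the 32162 probes was equal on all arrays, and a signal below 5 was set to 5. Before this scaling the median signal was 453 in HN males and 356 in control males, and 180 in HN females and 191 in control females. A probe is well above background when the software flags at least 50% of its spots so, which held for 67.7% to 79.1% of the probes of an array. The sex labels were checked with named markers. The vitelline membrane gene Vm34Ca had signals of 29200 and 27253 in HN and control females, while it was not well above background in males. The male dosage compensation RNA roX1 had signals from 2434 to 24461 on its 4 probes in males, and from 33.8 to 109 in HN females and 74.4 to 811 in control females. All 4 roX1 probes were lower in HN females than in control females, with log2 ratios from -2.90 to -1.14. The male gland gene Dup99B had the other order, with 30.2 in HN females and 6.06 in control females, against 5053 and 5111 in HN and control males. Its control female value was near the floor of 5 and not well above background, so the size of that difference is not known. The male marker roX2 had signals from 394 to 1115 in males and was not well above background in females, with 7.07 to 8.56. The marker soti was not well above background on any array. The part of these differences between the female arrays in the results of the 2 cuticle genes was not tested.

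Cpr97Eb was higher in HN flies than in control flies of both sexes. Its scaled signal was 790 ± 79 in HN males and 235 ± 24 in control males, where the error is the one that the scanner software gives for the spot. In females the signal was 711 ± 72 in HN flies and 278 ± 29 in control flies. Each group has 1 value, and with this scaling both HN values were above both control values. That order across the sexes depends on the scaling. With the 50th percentile of probes well above background on all 4 arrays, HN females fell below control males. There the log2 ratio was -1.92 for HN females over HN males and 1.78 for HN over control in males. With the 50th percentile of all probes, HN over control was 3.36-fold in males (log2 ratio 1.75 ± 0.21 from the software error) and 2.56-fold in females (1.36 ± 0.21). The named probe of the gene had a single spot on each array, so its own repeat-spot error is unknown. Probes of like signal that are spotted repeatedly gave a standard deviation (SD) of the log2 ratio between repeat spots of 0.11 in males (1071 probes) and 0.093 in females (487 probes). This error covers the array alone and leaves out the difference between pools of flies.

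**Figure D1:**
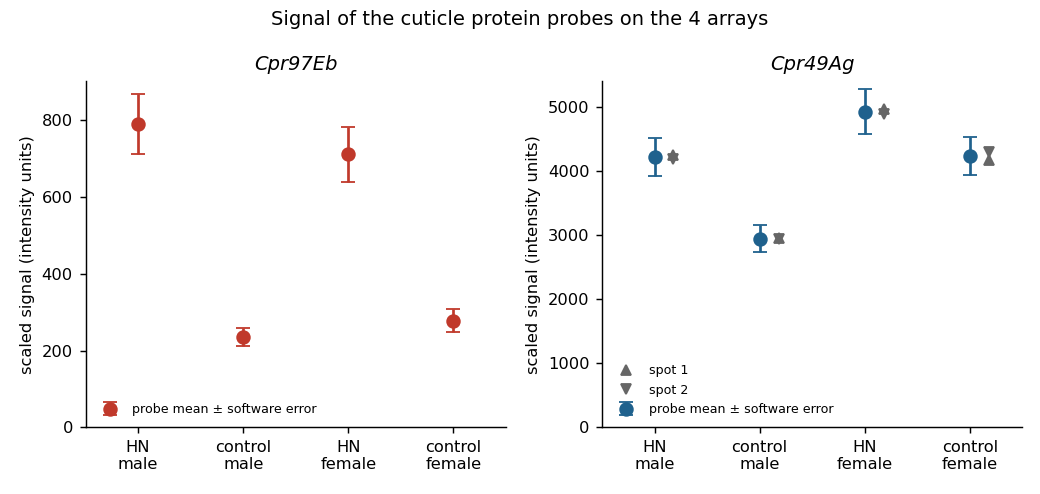
Scaled signal (intensity units, axes from 0) of Cpr97Eb and Cpr49Ag on each of the 4 arrays, with HN beside control in each sex. Circles are the probe mean, and triangles the 2 spots of the Cpr49Ag probe. Bars are the software's error of the signal, combined for Cpr49Ag over its 2 spots as if they were independent. The HN circles of Cpr97Eb lie at 790 and 711, and its control circles at 235 and 278.

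The spot of Cpr97Eb was bright enough to be read on every array. Before background subtraction its median pixel was 37.8 times the local background in HN males and 8.96 times in control males. In females it was 14.4 times the local background in HN flies and 7.35 times in control flies. No spot of either gene carried an outlier flag or was saturated, and both genes were well above background on all 4 arrays. The spots around Cpr97Eb, within 6 rows and 3 columns, did not share its ratio. Over 63 such spots in males the median log2 ratio was -0.10 and the highest 0.52, and over 62 in females the median was -0.08 and the highest 0.78.

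Among all probes, few had a ratio as high as Cpr97Eb. Probes were compared where 1 or both arrays of the pair read them well above background. In males 4.19% of the 25586 compared probes had an HN over control ratio above 1.5-fold, a limit that the study joined with statistical significance and that is used here alone, and 2.24% were lower by as much. Of the compared probes, 104 (0.406%) had a ratio above that of Cpr97Eb. In females 3.83% of the 22546 compared probes were higher and 3.14% lower, and 240 of those compared (1.06%) had a ratio above that of Cpr97Eb. Both sexes could be compared for 21490 probes, of which 0.987% passed the limit upward in males and females alike, and Cpr97Eb was the 51st of them by the smaller of its 2 ratios. Of the 193 named genes with a probe that every array read well above background, it had the highest of these smaller ratios. Named probes were only 1.13% of the probes read so, and Cpr97Eb was chosen with earlier results of these data known. These shares are a description of the arrays and no test.

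**Figure D2:**
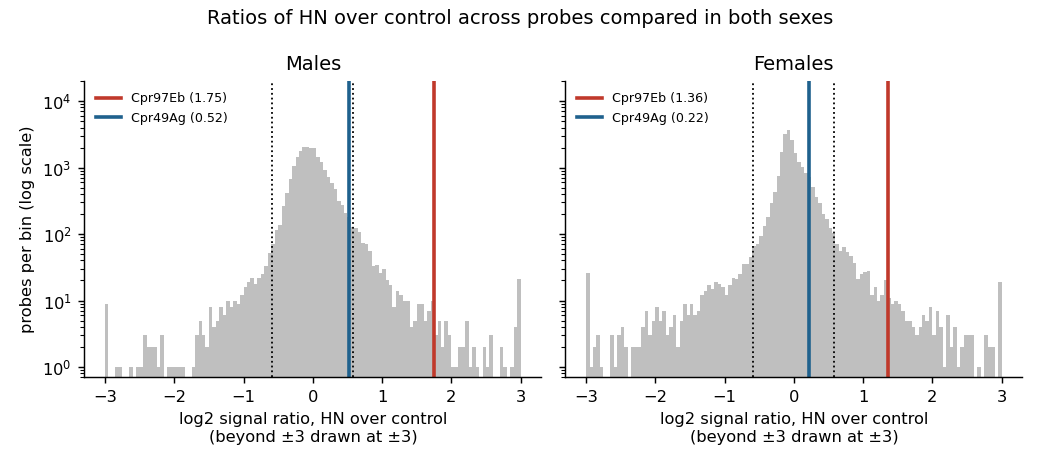
Number of probes (log axis) by the log2 signal ratio of HN over control in males and in females, over the 21490 probes compared in both sexes, with ratios beyond 3 drawn at the ends. Dotted lines mark 1.5-fold, and the colored lines mark Cpr97Eb (1.75 and 1.36), far in the right tail, and Cpr49Ag (0.52 and 0.22), inside the dotted lines.

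Cpr49Ag was a brighter probe on each array, with a smaller difference between HN and control flies. Its scaled signal was 4216 ± 298 in HN males and 2947 ± 208 in control males. In females it was 4930 ± 349 in HN flies and 4238 ± 300 in control flies. The errors of Cpr49Ag combine the software's errors of its 2 spots as if these were independent, and so are smaller than those of a single spot. The order of HN above control was thus the same in both sexes, but with this scaling the HN male value lay at the level of the control female value. HN over control was 1.43-fold in males (log2 ratio 0.52 ± 0.14) and 1.16-fold in females (0.22 ± 0.14), inside the 1.5-fold limit in both sexes. In males 5.21% of the compared probes had a higher ratio, and in females 13.9% did.

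The probe of Cpr49Ag was spotted at 2 places on each array, which gives its ratios a check within the arrays. In males the first spot had 4243 in HN flies and 2949 in control flies, and the second had 4189 and 2945 in HN and control flies. The log2 ratios of the spots were 0.52 and 0.51. In females the first spot had 4976 in HN flies and 4179 in control flies, and the second had 4884 and 4298 in HN and control flies, with log2 ratios of 0.25 and 0.18. The 2 spots of Cpr49Ag thus differed far less from each other than the HN male array did from the control male array. In females, too, both spots were higher on the HN array. Repeat spots of probes of like signal had an SD of the log2 ratio of 0.060 in males (1123 probes) and 0.035 in females (1053 probes), against the ratios of 0.52 and 0.22. Repeat spots cover the array alone and leave out the difference between pools of flies and, in males, between scans. In males the call depended on the processing. The ratio was past the limit of 0.585 without scaling (0.86), with each array scaled to its own probes well above background (0.86) and with the normexp background correction (0.73).

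The ratio of Cpr97Eb exceeded that of Cpr49Ag in both sexes. A factor applied to a whole array cancels in this comparison, because both probes lie on the same arrays. The log2 ratio of HN over control was larger for Cpr97Eb by 1.23 in males and by 1.14 in females. Under the background and normalization settings tried it ran from 0.79 to 1.76 in males and from 0.86 to 1.14 in females. Compared with the median of the 19758 probes that every array read well above background, Cpr97Eb was higher by 1.80 in males and 1.41 in females on the log2 scale, and Cpr49Ag by 0.57 and 0.28.

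**Figure D3:**
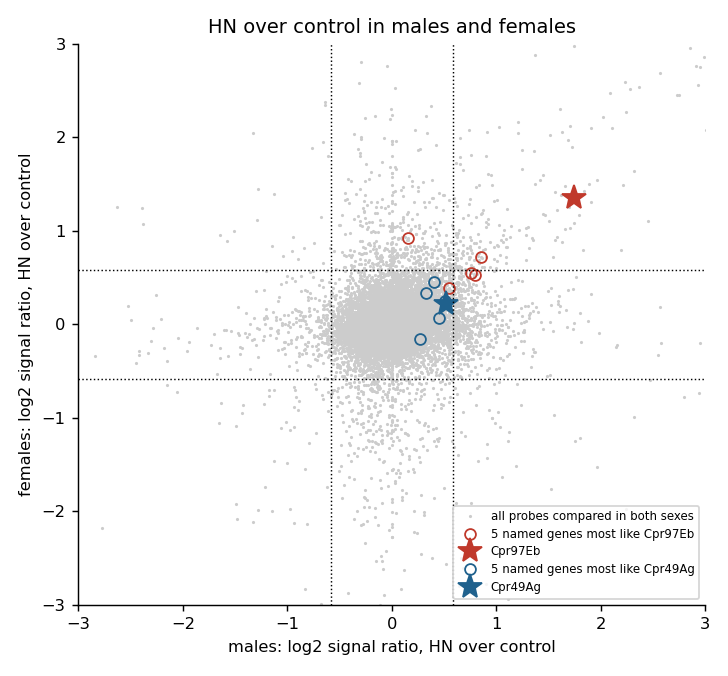
Log2 signal ratio of HN over control in males (horizontal axis) and females (vertical axis) for the probes compared in both sexes, with 1.5-fold marked by dotted lines and 60 probes beyond the axes left out. Stars are Cpr97Eb (1.75 in males, 1.36 in females) and Cpr49Ag (0.52 and 0.22), and open circles the 5 named genes with the pattern most like each of them over the 4 arrays.

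Both genes had a larger ratio in males than in females. The male ratio exceeded the female one by 0.39 on the log2 scale for Cpr97Eb and by 0.30 for Cpr49Ag. Of the 19758 probes, 6.13% had a larger gap than Cpr97Eb and 9.95% a larger gap than Cpr49Ag. The SD of the gap over these probes was 0.34, and 5% of them had a gap above 0.44. The gap of both genes kept its sign in all settings, from 0.37 to 1.23 for Cpr97Eb and from 0.27 to 0.74 for Cpr49Ag. This gap between males and females has no test, as each sex has 1 array per treatment, and in males the control array came from another scan.

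A test over both sexes was made with limma, with sex and treatment in the model and 1 residual degree of freedom. It takes the change to be alike in males and females and counts their difference as error. Of the 19758 probes tested, 0.147% were called higher in HN flies and 0% lower at a Benjamini-Hochberg adjusted p under 0.05. Cpr97Eb was not among these 29 probes. Its log2 change was 1.55 ± 0.13 (SE, 95% interval 1.22 to 1.88), with an adjusted p of 0.0592 in limma, and it was higher in HN flies in 2 of 2 sexes. It stood 31st by the size of its test statistic. With a variance prior that follows the mean signal the adjusted p was 0.00211, and over the settings tried it ran from 2.16e-14 to 0.676. Cpr49Ag had a log2 change of 0.37 ± 0.11 (interval 0.08 to 0.66) and an adjusted p of 0.447 in limma, from 0.130 to 0.99991 over the settings, and it was higher in HN flies in 2 of 2 sexes. An exact permutation test of 2 HN against 2 control arrays leaves out the pairing by sex and cannot give a two-sided p under 0.333. This permutation test gave 0.333 for Cpr97Eb and 0.667 for Cpr49Ag, and it cannot decide whether HN and control flies differ.

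How females compared with males turned on the scaling. With the 50th percentile Cpr97Eb was near its male level in females, with log2 ratios of female over male of -0.15 in HN flies and 0.24 in control flies and a software error of 0.20 and 0.21. Cpr49Ag had ratios of 0.23 in HN flies and 0.52 in control flies, each with an error of 0.14. On the same scale the median log2 ratio of the 19758 probes lay at 1.44 in HN flies and 1.48 in control flies. In HN flies 58.4% of the compared probes were more than 1.5-fold higher in females and 16.9% lower, and in control flies 60.9% were higher and 19.1% lower. With the 75th percentile the split was 30.7% higher and 49.0% lower in HN flies and 31.9% and 46.1% in control flies, and the median ratios moved to -0.16 and -0.13. The ratios of Cpr97Eb then were -1.75 in HN flies and -1.37 in control flies, and those of Cpr49Ag -1.37 and -1.08. In the limma fit 74.9% of probes were called higher in females and 11.3% lower with the 50th percentile, and 41.5% and 47.0% with the 75th percentile. Cpr49Ag was called higher with the 50th percentile (0.37 ± 0.11, adjusted p = 0.0266 in limma) and lower with the 75th percentile (-1.23, adjusted p = 3.36e-04). Cpr97Eb was not called with the 50th percentile (0.04 ± 0.13, adjusted p = 0.753 in limma) and was called lower in females with the 75th percentile (-1.56, adjusted p = 2.26e-04).

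Set against the median probe, both genes lay lower in females than in males in every setting. A factor applied to a whole array cancels in this measure, so the scaling settings gave equal values by construction. Only quantile normalization, normexp and, slightly, the deposited probe values could change the measure. The log2 ratio of female over male of Cpr97Eb deviated from the median by -1.59 in HN flies and -1.24 in control flies, and the settings gave deviations from -1.59 to -1.36 in HN flies and from -1.24 to -0.37 in control flies. For Cpr49Ag the deviations were -1.21 in HN flies and -0.96 in control flies, and over the settings they ran from -2.05 to -1.21 and from -1.76 to -0.73. Thus 14.02% of probes in HN flies and 24.0% in control flies had a lower ratio than Cpr97Eb, and 23.5% and 30.1% a lower ratio than Cpr49Ag. The order of the levels of either gene across the sexes is therefore not settled by these arrays, while within a sex HN stood above control in every setting for both genes. The lowest such log2 ratio of Cpr49Ag in females, 0.13, was within its software error of 0.14.

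**Figure D4:**
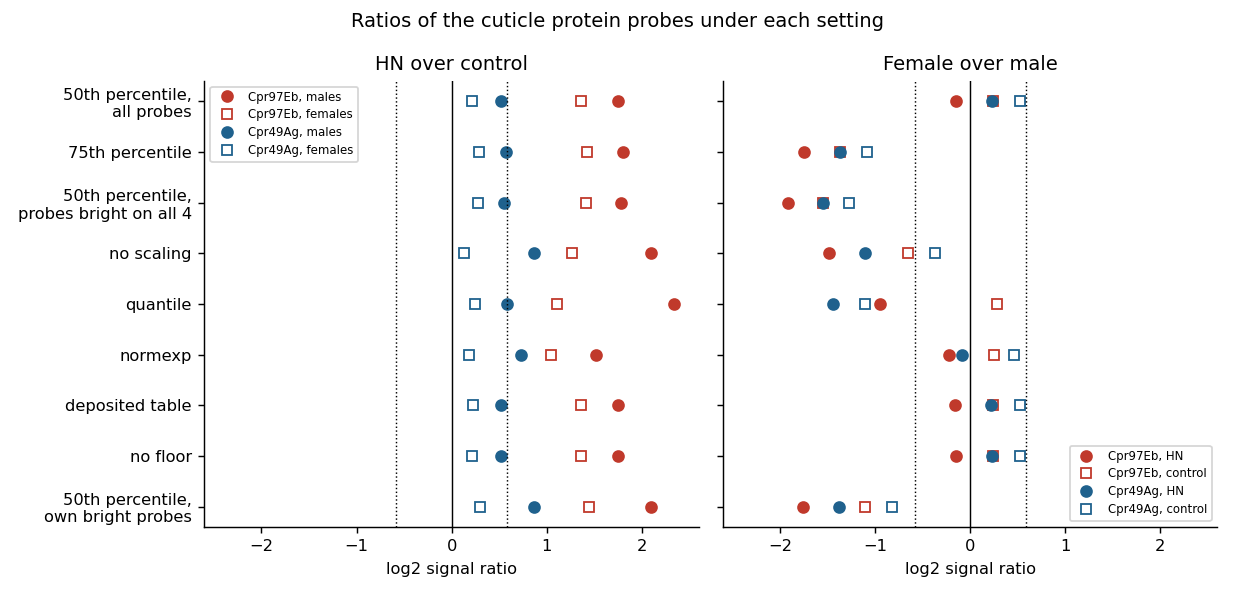
Log2 signal ratios of HN over control and of female over male for both genes under each processing setting (rows), with filled circles for males or HN flies, open squares for females or control flies and dotted lines at 1.5-fold. The HN ratios of Cpr97Eb lie right of the upper dotted line in every row (1.04 to 2.34), whereas the female over male ratios change sign between rows except that of Cpr97Eb in HN flies, which lies below 0 in every row.

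Likeness to the 2 genes was measured over the 4 arrays by the root mean square difference of log2 signals after centering each probe on its own mean. For Cpr97Eb the nearest of the 192 other named genes was CG43897, at 0.39, and it stood 41st among all probes. CG43897 had signals of 58.0 in HN males and 32.0 in control males, and 56.0 and 34.0 in HN and control females, a dim probe with the same order of groups within each sex. The next were asRNA:CR42860 at 0.56, the linear ubiquitin ligase gene LUBEL at 0.57, CG12483 at 0.57 and CG13954 at 0.58. Among all probes they stood 233rd, 240th, 243rd and 301st. Their ratios were smaller than those of Cpr97Eb, from 0.16 to 0.80 in males and from 0.39 to 0.92 in females. Only 14 of the 19757 other probes lay within 0.2 of Cpr97Eb. The closest was the transcript FBtr0302334, at 0.06, with signals of 2327 in HN males and 738 in control males and 2179 and 781 in HN and control females. The files give no gene for it.

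Cpr49Ag varied little over the arrays, at a root mean square of 0.27 from its own mean, so that the 1102 probes within 0.2 of it include probes without its order of groups, such as Os-C. Its nearest named gene was CG14692, at 0.03, with log2 ratios of HN over control of 0.51 in males and 0.25 in females. CG9133 at 0.07, CG14687 at 0.10, the long noncoding RNA gene lncRNA:CR31781 at 0.13 and Os-C at 0.17 followed. Among all probes these stood 41st, 111th, 220th and 613th. Their ratios ran from 0.27 to 0.45 in males and from -0.15 to 0.46 in females, and those of Os-C differed in sign between the sexes. With 4 arrays, likeness of this kind is a description over few points.

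The rest of the cuticle and chitin genes could not be set beside them here. RefSeq lists 70 genes of the Cpr family, of which Cpr97Eb and Cpr49Ag alone had a probe with a name here, and no other gene of the wider list of 141 cuticle genes did. None of 47 chitin metabolism genes did either, so that no count of members passing the 1.5-fold limit is given beyond the 2 genes, of which 1 passed in each sex. In the current RefSeq annotation Cpr97Eb lies on chromosome arm 3R beside Cpr97Ea. Cpr49Ag lies on arm 2R next to Cpr49Af, in a group of 8 genes named Cpr49Aa to Cpr49Ah, and whether these neighbors moved with it was not analysed here.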

How the data were processed

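Gene expression was measured on Agilent 1-color Drosophila arrays. The intensity values deposited by the authors are background-subtracted signals of each spot from Feature Extraction 11.5.1.1 (the methods name another release), not scaled between arrays, and a table of 1 intensity per probe, of which 99.0% to 99.3% lay within 0.1% of the mean processed signal of the spots. Each array was scaled to its 50th percentile and scaled signals under 5 were then set to 5, whereas the methods set the floor of 5 before the scaling. Outlier spots were left out and spots of a probe averaged on the log2 scale.

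Ratios are HN over control, or female over male. The test used limma 3.58.1 in R 4.3.3. It was also run on simulated data built to follow the assumptions of the model, which cannot show how well these hold on the 4 arrays. With 4 arrays, their number limits the precision. Of 32162 probes, 412 (1.28%) were named. The genes described are the members, the 5 named genes nearest to each and the sex markers. Members and lists were chosen with earlier results of these data known. The array design rests on an older assembly than RefSeq's, so coordinates were not used. Normexp used median spot signals, since no mean signal column was found. For the named lists of cuticle proteins and chitin metabolism, 2 of 141 and 0 of 47 genes had a named probe. Of the markers, 1 of 9 female and 4 of 11 male genes did.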

Additional observations from a re-analysis of the deposited data

How the results depend on the processing

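HN stood above control for both genes in each sex under every setting, and Cpr97Eb stayed past 1.5-fold. For Cpr49Ag in females the log2 ratio ran from 0.13 to 0.30, against a software error of 0.14. Values are log2 ratios. HN over control of Cpr97Eb in males was 2.09 without scaling, 2.34 with quantile normalization, 1.52 with normexp and 2.09 with each array scaled to its own probes well above background, a setting chosen after seeing the data. In females it was 1.11 with quantile normalization and 1.04 with normexp. Cpr49Ag in males gave 0.86 without scaling, 0.73 with normexp and 0.86 with own-probe scaling.

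Female over male changed sign with the scaling, except for Cpr97Eb in HN flies, which was below 0 in all settings (-0.15 with the 50th percentile). In HN flies Cpr97Eb had -1.75 with the 75th percentile, -1.92 with the 50th percentile of the probes that every array read well above background (shared probes), -1.48 without scaling, -0.95 with quantile normalization and -1.76 with own-probe scaling. In control flies it had -1.37 with the 75th percentile, -1.55 with shared probes, -0.65 without scaling and -1.11 with own-probe scaling. Cpr49Ag in HN flies had -1.37, -1.54, -1.11, -1.44 and -1.38 in the order of the HN settings of Cpr97Eb, and -0.082 with normexp. In control flies it had -1.08, -1.27, -0.37, -1.11 and -0.82 in that order.

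In limma the HN term of Cpr97Eb passed the threshold with a trended variance prior (1.55, adjusted p = 0.00211), without scaling (1.68), with normexp (1.28) and with own-probe scaling (1.77). In the last 3 the prior made all probes share 1 variance. These settings called 231, 151, 373 and 480 probes, against 29. Quantile normalization and a filter of at least 1 array called 0 by limma, with 1535 and 1438 probes at an unadjusted p under 0.05. The female term of Cpr97Eb was -1.56 with the 75th percentile, -1.74 with shared probes, -1.07 without scaling, -0.33 with quantile normalization and -1.43 with own-probe scaling, each called lower in females but the quantile value. That of Cpr49Ag was -1.23, -1.41, -0.74, -1.27 and -1.10 in that order, and it lost its call with normexp (0.19) and with the filter of at least 1 array (0.37, adjusted p = 0.0815).

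The share of probes past the limit, higher and lower in HN males, was 1.29% and 1.11% at 2-fold, 14.8% and 1.23% without scaling, and 1.8% and 1.48% with normexp. It was 2.37% higher where both arrays had to be well above background, and 4.2% lower with no background filter at all. In females the shares higher and lower in HN flies were 1.8% and 1.88% at 2-fold, and 1.93% and 1.66% with both arrays well above background. They were 7.19% and 5.15% with no background filter at all, and 1.11% and 1.19% with normexp. For female over male, higher and lower, they were 30.7% and 49.0% in HN flies and 31.9% and 46.1% in control flies with the 75th percentile, and 35.4% and 43.5% in HN flies without scaling. The lower share was 34.1% in control flies without scaling, and 6.85% in HN flies and 8.24% in control flies with both arrays well above background. Why these values moved was not tested.

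The labels carry no replicate numbers, so no replicate block was fitted. The limma fit pairs HN with control within each sex through its sex term. Leaving out an array leaves no residual degrees of freedom, so this was not run. The comparison with the median probe and the spots around the genes were added after seeing the data. With 4 arrays of 4 pools, the spread between flies was not measured.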
